A study of Sus scrofa with 6 samples.

Results

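The S100 proteins are small calcium-binding proteins, and 9 genes of the family are described here in longissimus dorsi (LD) muscle of pigs: S100A1, S100A4, S100A6, S100A8, S100A9, S100A10, S100A11, S100A12 and S100B. They were taken by gene symbol from the deposited transcript table. Of the 9, 7 were named there, and S100A9 and S100B, whose Ensembl genes carried no symbol, were matched by position to the RefSeq annotation of the same assembly. They are 9 of 31908 Ensembl genes in the table and 9 of 12743 protein-coding genes with a mean of at least 0.1 FPKM, a count of fragments scaled to transcript length and library size. S100A12 was put on the list because it was higher in the high-fat pigs, so its difference between the groups is a description and has no test.

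The animals were castrated male Laiwu pigs, a Chinese indigenous breed known for heavy marbling of its meat. The 3 S-H pigs (LW63, LW70 and LW119) had a high intramuscular fat content and the 3 S-L pigs (LW82, LW88 and LW90) a low one, and all 6 received no treatment named in the labels. They were picked from the extremes of a larger herd, and each pig gave 1 strand-specific library of total RNA depleted of ribosomal RNA. Every value is from whole muscle tissue, in which fewer cells of a type and less RNA per cell cannot be told apart.

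S100 proteins carry a pair of EF-hand loops, and binding of calcium exposes a surface that grips target proteins. Inside cells they act on the cytoskeleton, on annexins at membranes and, in the case of S100A1 in striated muscle, on the calcium channel and pump of the sarcoplasmic reticulum. S100A8, S100A9 and S100A12 are made mainly by neutrophils and monocytes and, once released, act on the receptors AGER and TLR4 as alarm signals. S100B is best known from glia and Schwann cells, and is also made by adipocytes.

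The label of the tissue was checked first. Summed FPKM of the 8 skeletal muscle fibre markers found under their symbols (ATP2A1, CKM, DES, MYH7, TNNI1, TNNI2, TNNT1 and TNNT3) ran from 7482 to 15491 over the pigs. Summed adipocyte markers were higher in each S-H pig (545.4 to 1481 FPKM) than in each S-L pig (366.2 to 453.9 FPKM). Of these 8 adipocyte markers 5 passed the thresholds used below as higher in S-H, against 1.17% of all tested genes. Library LW119 stood apart for the sum of neutrophil and granulocyte genes. Its 13 such markers found under their symbols summed to 15.1 FPKM against 2.83 to 4.92 in the other 5 pigs. The general leukocyte markers were highest there for 4 of 4, with a sum of 49.0 FPKM against 35.3 FPKM in LW63, the next pig. LW119 also held the highest value of the 6 pigs for 30.6% of all tested genes. S100 values that rest on LW119 are therefore given with and without it. FPKM tables hold no read counts, so the reads behind each value are unknown, although the study gives the total reads of each library.

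S100A1 was by far the most abundant S100 transcript of the muscle. Its mean over the 6 pigs was 133.1 ± 43.7 FPKM (SD, n = 6), 79.2% of the summed FPKM of the 9 genes, and it lay at the 98.0th percentile of mean level among tested genes. S100A10 followed at 12.3 ± 7.66 FPKM, S100A4 at 7.02 ± 6.41 FPKM and S100A11 at 3.70 ± 3.78 FPKM. These 4 genes kept that order in 6 of 6 pigs, although only S100A1 and S100A10 had ranges that did not overlap.

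The remaining genes lay close together. S100A12 averaged 3.42 ± 4.49 FPKM, S100B 2.52 ± 0.771 FPKM, S100A6 2.29 ± 1.34 FPKM, S100A9 1.89 ± 3.44 FPKM and S100A8 1.85 ± 3.97 FPKM (SD, n = 6). Neighbours in this lower range overlapped, and S100A12 exceeded S100B in only 2 of 6 pigs. FPKM is scaled to transcript length, so these levels can be set side by side.

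**Figure D1:**
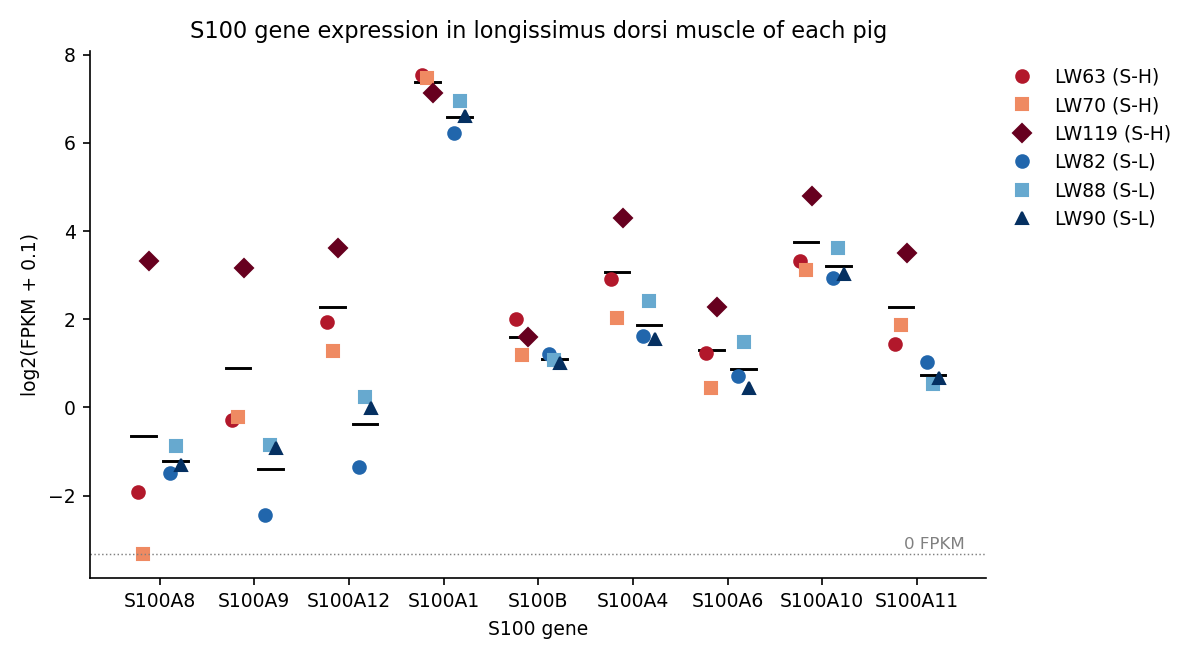
Level of each S100 gene in each pig as log2(FPKM + 0.1), with red symbols for S-H pigs and blue symbols for S-L pigs. LW119 was the highest pig for 7 of the 9 genes, whereas S100A1 and S100B were highest in LW63.

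The spread among pigs of a group differed widely between these genes. The within-group SD on the log2 scale was 0.30 for S100A1 and 0.30 for S100B, below the median of 0.38 over all tested genes. It was 0.70 for S100A10, 0.76 for S100A6, 0.79 for S100A11, 0.88 for S100A4, 1.05 for S100A12, 1.54 for S100A9 and 2.49 for S100A8. The order rested on LW119: without it the SD was 0.63 for S100A8, 0.73 for S100A9 and 0.74 for S100A12, against 0.27 to 0.55 for the other 6 and a median of 0.36 over all tested genes. Among the S-L pigs alone S100A8 had an SD of 0.32, below that of S100A4 (0.48) and S100A6 (0.55).

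The groups were compared with limma on log2(FPKM + 0.1), fitted over all 12743 tested genes. A gene passed where the unadjusted p was below 0.01 and the log2 fold change was 1 or more in size, the thresholds of the study, which do not correct for the number of genes. No gene reached an adjusted p below 0.05 in limma: the count was 0, the lowest adjusted p was 0.0761, and 1039 genes had an unadjusted p below 0.05. Of the 8 S100 genes other than S100A12, 1 passed as higher in S-H, S100A11, where 1.17% of all tested genes passed in that direction. An unadjusted p below 0.05 was found for 4 of the 8 (S100A1, S100A4, S100A9 and S100A11), against 7.08% of all tested genes as higher. Without LW119, 0 of the 8 passed in limma, against 1.26% of all tested genes, with the unadjusted p values given below. The S-H and S-L pigs did not overlap for S100A1, S100A9 and S100A11, 3 of these 8 genes, with S-H higher, and 13.1% of all tested genes were like that. The log2 fold change was above 0 for 8 of these 8 genes, as it was for 74.1% of all tested genes. Its median was 0.69 over the 8, against 0.21 over all tested genes, the level against which fold changes on FPKM are read. Median-ratio size factors brought the median of all tested genes to 0.01.

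S100A12 (ENSSSCG00000032857, chromosome 4 at 96225693–96227137 of Sscrofa11.1), which is absent from rodents and is released by activated granulocytes, was the gene chosen for its difference. It measured 3.70 FPKM in LW63, 2.35 FPKM in LW70 and 12.2 FPKM in LW119, against 0.292 FPKM in LW82, 1.07 FPKM in LW88 and 0.897 FPKM in LW90. All 3 S-H pigs lay above all 3 S-L pigs, with LW119 well above the other two. The means were 6.10 ± 5.36 FPKM in S-H and 0.753 ± 0.409 FPKM in S-L (SD, n = 3 each), an 8.09-fold difference of means and a log2 fold change of 2.66 ± 0.60 (SE). Without LW119 the ratio of means was 4.02 and the log2 fold change 1.98 ± 0.50 (SE), and the groups still did not overlap. Over the 18 alternative settings its log2 fold change ran from 1.79 to 3.15.

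S100A9 (ENSSSCG00000006588, chromosome 4 at 96236113–96239285), the larger subunit of calprotectin, had the same order of groups. It measured 0.718 FPKM in LW63, 0.756 FPKM in LW70 and 8.90 FPKM in LW119, against 0.0856 FPKM in LW82, 0.457 FPKM in LW88 and 0.432 FPKM in LW90. LW119 was 11.8-fold above the next pig, while LW63 and LW70 lay less than 1 FPKM above the S-L pigs. The log2 fold change was 2.28 ± 0.85 (SE), with an unadjusted p of 0.0230 and adjusted p of 0.581 in limma, short of the thresholds. Without LW119 it was 1.14 ± 0.53, with an unadjusted p of 0.0572 in limma, and the groups still did not overlap, as for 21.4% of all genes in that comparison. Without LW63 S100A9 passed, with a log2 fold change of 2.87 and an unadjusted p of 0.00862 in limma.

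S100A8 (ENSSSCG00000006590, chromosome 4 at 96209551–96210602), the other subunit of calprotectin, did not share that order. It measured 0.163 FPKM in LW63, was listed at 0 in LW70 and reached 9.94 FPKM in LW119, against 0.254 FPKM in LW82, 0.448 FPKM in LW88 and 0.302 FPKM in LW90. LW119 stood 22.2-fold above the highest other pig, and the remaining S-H pigs were the lowest of the 6. The log2 fold change of 0.59 ± 1.33 (SE; unadjusted p of 0.668 and adjusted p of 0.911 in limma) was smaller than its error. Without LW119 its direction turned, to -1.40 ± 0.52 with an unadjusted p of 0.0236 in limma, short of the thresholds. S-H was then below S-L without overlap, as for 5.91% of all tested genes. The size of that value depends on the pseudocount, because LW70 is listed at 0.

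The mixture of the 3 myeloid transcripts therefore differed between pigs. S100A12 made up 80.8% of their summed FPKM in LW63, 75.6% in LW70 and 39.4% in LW119, against 46.2% in LW82, 54.2% in LW88 and 55.0% in LW90. The share of S100A8 was 3.57% in LW63, 0 in LW70 and 32.0% in LW119, against 40.3% in LW82, 22.7% in LW88 and 18.5% in LW90. LW119 was thus nearer to the S-L pigs than to the other S-H pigs in this mixture, although its summed level of 31.1 FPKM was far above the 0.631 to 4.58 FPKM of the other pigs. The S100A9 share ran from 13.6% to 28.6% with no separation of the groups.

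The myeloid genes were also set against the other 6 within each pig, as the mean log2(FPKM + 0.1) of S100A8, S100A9 and S100A12 minus that of the rest. This difference was -3.17 in LW63, -3.43 in LW70 and -0.56 in LW119, against -4.05 in LW82, -3.17 in LW88 and -2.96 in LW90. LW63 and LW70 lay within the range of the S-L pigs, and LW119 lay above every other pig. S-H exceeded S-L by 1.01 with LW119 and by 0.09 without it, values to which S100A12, chosen for its difference, contributes. With S100A8 and S100A9 alone as the myeloid genes, S-H exceeded S-L by 0.60 with LW119 and the difference was -0.61 without it.

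S100A1 (ENSSSCG00000031053, chromosome 4 at 95993938–96012402), the striated muscle member that binds the ryanodine receptor and the calcium pump, was higher in every S-H pig. It measured 186.7 FPKM in LW63, 176.3 FPKM in LW70 and 139.7 FPKM in LW119, against 74.6 FPKM in LW82, 123.7 FPKM in LW88 and 97.5 FPKM in LW90. The groups did not overlap, but LW119 and LW88 lay close to each other, and LW119 was the lowest S-H pig. The means were 167.5 ± 24.7 FPKM and 98.6 ± 24.6 FPKM (SD, n = 3 each), a log2 fold change of 0.78 ± 0.27 (SE) with an unadjusted p of 0.0153 and adjusted p of 0.581 in limma. Without LW119 it was 0.91 ± 0.28 with an unadjusted p of 0.00889 in limma, below 1 on the log2 scale and so not passing. With size factors the log2 fold change was 0.56 with an unadjusted p of 0.1003 in limma.

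As S100A1 dominated the family, its share followed the other members. It held 85.9% of the summed S100 FPKM in LW63, 88.7% in LW70, 81.5% in LW82, 82.9% in LW88 and 85.0% in LW90, but 59.0% in LW119. The total itself was 236.9 FPKM in LW119, the highest of the 6, and 91.5 FPKM in LW82, the lowest.

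**Figure D2:**
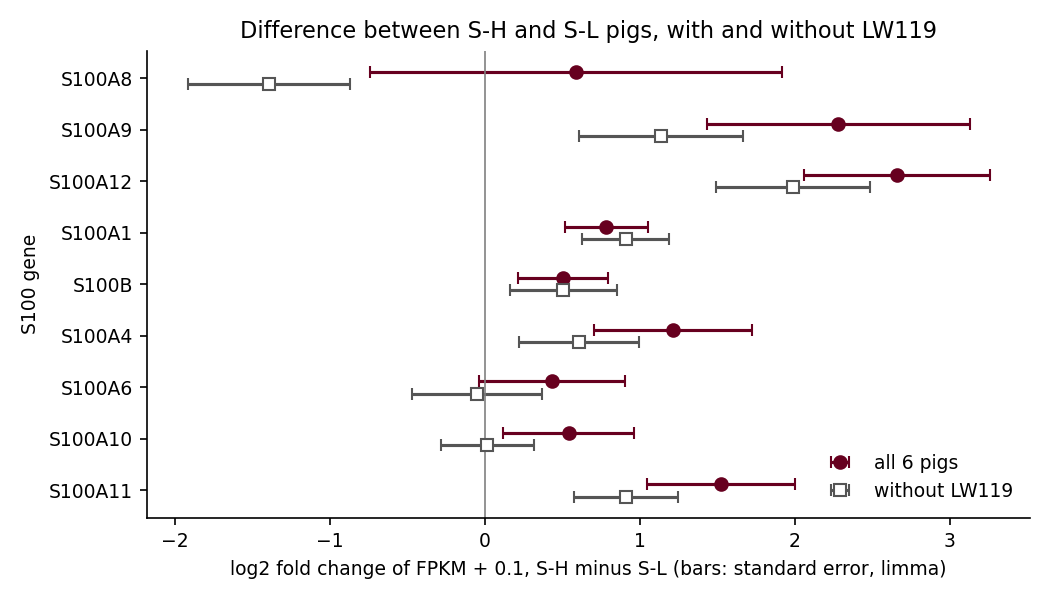
Log2 fold change of each S100 gene, S-H minus S-L, with its limma standard error, for all 6 pigs (filled circles) and without LW119 (open squares). S100A8 moved from 0.59 to -1.40 without LW119, S100A6 and S100A10 moved to -0.051 and 0.01, and S100A1 and S100B changed little.

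S100A11 (ENSSSCG00000006610, chromosome 4 at 97233499–97243423), which binds annexin A1 and is found in many tissues, was the tested S100 gene that passed. It measured 2.62 FPKM in LW63, 3.54 FPKM in LW70 and 11.2 FPKM in LW119, against 1.95 FPKM in LW82, 1.34 FPKM in LW88 and 1.496 FPKM in LW90. The groups did not overlap, with LW119 3.18-fold above the next pig. Its log2 fold change was 1.53 ± 0.48 (SE), with an unadjusted p of 0.00965 and adjusted p of 0.581 in limma. Without LW119 it was 0.91 ± 0.33 with an unadjusted p of 0.0220 in limma and no longer passed, while the groups still did not overlap. The call was also lost on leaving out LW70, LW82, LW88 or LW90, with unadjusted p from 0.0116 to 0.0312 in limma, and it was kept without LW63. S100A11 also failed to pass under 7 of the 12 other settings, among them size factors (1.31, unadjusted p of 0.0209 in limma) and a minimum mean of 0 (unadjusted p of 0.0193 in limma).

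S100A4 (ENSSSCG00000006578, chromosome 4 at 96088201–96091156), a partner of non-muscle myosin found in fibroblasts and leukocytes, measured 7.46 FPKM in LW63, 3.97 FPKM in LW70 and 19.6 FPKM in LW119. The S-L pigs had 3.00 FPKM in LW82, 5.26 FPKM in LW88 and 2.82 FPKM in LW90. LW70 lay below LW88, so the groups overlapped, and LW119 was 2.63-fold above the next pig. The log2 fold change was 1.22 ± 0.51 (SE; unadjusted p of 0.0383 and adjusted p of 0.607 in limma), and 0.61 with an unadjusted p of 0.149 in limma without LW119. Without LW70 S100A4 passed instead, with 1.74 and an unadjusted p of 0.00386 in limma.

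S100A10 (ENSSSCG00000006612, chromosome 4 at 97261815–97272513), the member that does not need calcium and forms a tetramer with annexin A2, gave no separation of the groups. It measured 9.92 FPKM in LW63, 8.52 FPKM in LW70 and 27.6 FPKM in LW119, against 7.60 FPKM in LW82, 12.2 FPKM in LW88 and 8.10 FPKM in LW90. LW63 and LW70 lay inside the S-L range, and LW119 was 2.26-fold above LW88. On the log2 scale S-H minus S-L was 0.54 ± 0.42 (SE; unadjusted p of 0.229 and adjusted p of 0.712 in limma), and 0.01 ± 0.30 without LW119.

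S100A6 (ENSSSCG00000021084, chromosome 4 at 96098283–96099685), which binds the calcyclin-binding protein CACYBP and is common in fibroblasts, also gave overlapping groups. It measured 2.23 FPKM in LW63, 1.25 FPKM in LW70 and 4.75 FPKM in LW119, against 1.54 FPKM in LW82, 2.70 FPKM in LW88 and 1.25 FPKM in LW90. The groups overlapped, with LW119 highest and LW88 next. On the log2 scale S-H minus S-L was 0.43 ± 0.47 (SE; unadjusted p of 0.377 and adjusted p of 0.794 in limma), and -0.051 ± 0.42 without LW119.

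S100B (ENSSSCG00000026140, unplaced scaffold AEMK02000328.1 at 189783–197335) was the member off chromosome 4. It measured 3.92 FPKM in LW63, 2.18 FPKM in LW70 and 2.92 FPKM in LW119, against 2.21 FPKM in LW82, 1.99 FPKM in LW88 and 1.91 FPKM in LW90. LW70 lay just below LW82, and the S-L pigs averaged 2.04 ± 0.154 FPKM (SD, n = 3). Its log2 fold change was 0.50 ± 0.29 (SE; unadjusted p of 0.115 and adjusted p of 0.647 in limma), and 0.50 ± 0.35 without LW119. Of 11 tested Schwann cell and nerve markers 0 passed in limma with all 6 pigs, and the median log2 fold change of the 11 was -0.29. At an unadjusted p below 0.05 in limma, 1 of them (NCAM1) was lower in S-H (-0.89), against 1.08% of all tested genes. Without LW119 NCAM1 passed as lower, with -1.21 and an unadjusted p of 0.00204 in limma. The adipocyte marker sums given above were highest in LW63, the pig highest in S100B, and their part in the S100B level was not tested.

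Of the 8 S100 genes other than S100A12, LW119 was the highest pig for S100A4, S100A6, S100A8, S100A9, S100A10 and S100A11. Of all tested genes 30.6% were highest in LW119. It was at least 2-fold above every other pig for S100A4, S100A8, S100A9, S100A10 and S100A11, against 2.27% of all tested genes. S100A12, chosen for its difference between the groups, was also highest in LW119, at 3.31-fold above the next pig. Leaving LW119 out brought the median log2 fold change of the 9 genes, S100A12 included, from 0.78 to 0.61, with 0.19 over all tested genes.

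Markers of some other cell types were also high in LW119 and are given by list. They are set beside the 30.6% of all tested genes that were highest in that pig. Among neutrophil and granulocyte markers, 6 of 7 tested were highest in LW119: LTF, for one, reached 3.38 FPKM against at most 0.145 FPKM elsewhere. MPO and ELANE, which are transcribed in marrow precursors, were at or near 0, with at most 0.0885 FPKM in any pig. Among monocyte and macrophage markers 11 of 16 tested were highest in LW119, with a sum of 178.7 FPKM there and 76.8 to 161.0 FPKM in the other pigs, and LYZ was listed at 0 in all 6. Fibroblast and matrix markers were highest in LW119 for 7 of 8, with sums of 772.9 FPKM there and 364.1 to 714.6 FPKM elsewhere. Erythroid and blood markers were highest in LW119 for 3 of 6 tested and summed to 393.5 FPKM there, within the 174.6 to 698.8 FPKM of the other pigs. LW119 was the highest pig for 2 of 5 endothelial, 2 of 11 Schwann cell and nerve and 1 of 8 muscle fibre markers tested. It was the highest for 1 of 1 keratinocyte and 0 of 8 adipocyte markers tested. The part of any of these cell types in the S100 values was not tested.

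**Figure D3:**
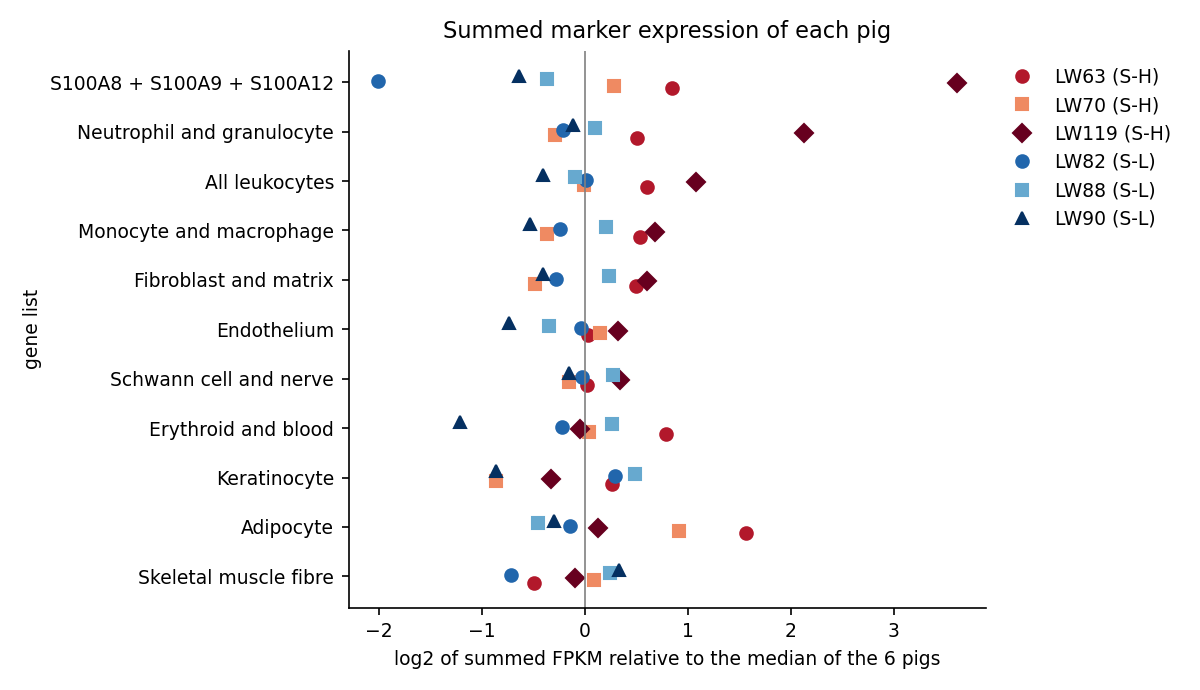
Summed FPKM of each marker list in each pig, as log2 relative to the median of the 6 pigs, beside the sum of S100A8, S100A9 and S100A12. LW119 stands far to the right for the S100 genes (31.1 FPKM) and the neutrophil list (15.1 FPKM), and LW63 for the adipocyte list (1481 FPKM).

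Pairs of S100 genes and partners known to form complexes or to share cells were followed over the 6 pigs on the log2(FPKM + 0.1) scale. There were 7 pairs, examined by exact permutation of the 720 pairings, two-sided, with Benjamini-Hochberg adjustment over the 7. The pairs with S100A12, whose values the choice of genes used, are given as a description with no p. The adjustment did count these pairs, so the adjusted p values of the other pairs rest in part on them and are given as a description. S100A9 and S100A12 gave Pearson's r of 0.946 and Spearman's rho of 0.943. Without LW119 and LW82, the pigs farthest from the median, r was 0.934, and the r of deviations from the group means was 0.951.

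The calprotectin subunits gave lower values. S100A8 and S100A9 had r of 0.766 (exact permutation p = 0.174, adjusted 0.222) and rho of 0.0857 (exact permutation p = 0.919, adjusted 0.919), and r of -0.119 without LW119 and LW70. S100A8 and S100A12 had r of 0.577 and rho of 0.143, and r of -0.428 without the same pigs. Both positive r values rested on LW119.

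S100A10 and its partner ANXA2, which carries it to the membrane, had r of 0.876 (exact permutation p = 0.0167, adjusted 0.0389) and rho of 0.943 (exact permutation p = 0.0167, adjusted 0.0583). It was 0.969 without LW119 and LW88 and 0.686 without LW119 alone. S100A4 and S100A6, neighbours on the chromosome, had r of 0.925 (exact permutation p = 0.0167, adjusted 0.0389) and rho of 0.771 (exact permutation p = 0.103, adjusted 0.240), with r of 0.774 without LW119 and LW63 and 0.766 without LW119 alone. The other two pairs were weaker. S100A11 with ANXA1 had r of 0.750 (exact permutation p = 0.107, adjusted 0.187) and rho of 0.314 (exact permutation p = 0.564, adjusted 0.789), with r of 0.608 without LW119 and LW88 and 0.0230 without LW119 alone. S100A1 with S100B had r of 0.590 (exact permutation p = 0.221, adjusted 0.222) and rho of 0.543 (exact permutation p = 0.297, adjusted 0.520), with r of 0.443 without LW63 and LW82 and 0.582 without LW119. For S100A1 with S100B the r of deviations from the group means was -0.0515. It was 0.932 for S100A10 with ANXA2, 0.987 for S100A4 with S100A6 and 0.601 for S100A11 with ANXA1.

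The tested genes nearest in pattern over the 6 pigs were found by the root mean square difference of centred log2(FPKM + 0.1) values. For S100A12 they were RPRM at 0.463, SERPINB11 at 0.465 and NPTX1 at 0.517, and S100A9 came next at 0.548. For S100A8 they were LTF (lactoferrin, of neutrophil granules) at 0.695, NPG1 (protegrin 1, an antimicrobial peptide of pig leukocytes) at 0.754 and TIMP1 at 0.897. S100A9 was only the 55th nearest to S100A8, at 1.33. For S100A1 they were ZNF444 at 0.0825, IFIT1 at 0.0836 and NEMP2 at 0.113, and for S100B SPECC1L at 0.0476, CDCA4 at 0.0586 and OGN at 0.0656. With 12743 genes and 6 pigs, close patterns are found for any gene.

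The transcripts behind each gene sum were not the same in every pig. S100A1 had 2 annotated transcripts, and S100A1-202, whose lower end at 96007026 is that of the RefSeq gene, held 99.8% to 99.9% of the sum in 5 pigs. In LW90 it held 9.13% (8.90 FPKM), and S100A1-201 held 90.9% (88.6 FPKM). S100A1-201 reaches 13.1 kb further towards lower coordinates, to 95993938. Its span runs over CHTOP (95994263–96005584), a chromatin protein gene whose own level was 8.89 to 17.9 FPKM. Strand was not examined, so which end is the start of transcription is not stated. The gene sum of LW90 lay between those of LW82 and LW88, but S100A1-202 alone gave a log2 fold change of 1.93 with an unadjusted p of 0.0769 in limma.

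**Figure D4:**
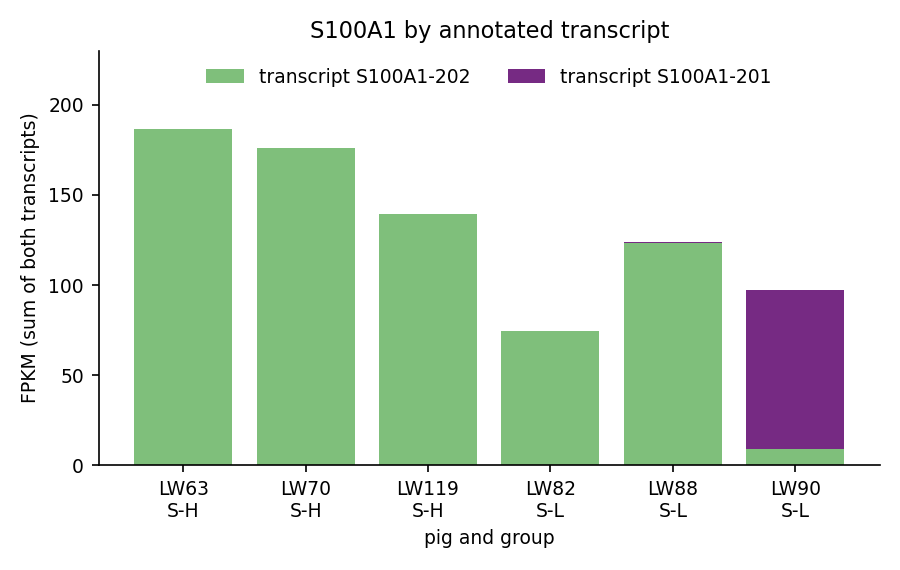
FPKM of S100A1 in each pig, stacked by its 2 annotated transcripts. S100A1-202 makes up nearly all of the sum in 5 pigs, and S100A1-201 makes up 90.9% of it in LW90.

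Other members rested partly on transcripts assembled by the authors. The Ensembl transcript of S100A6 was listed at 0 in every pig, and its sum came from 4 assembled transcripts. One of these, TCONS_00187772, was at 2.84 FPKM in LW119 and 0.822 FPKM in LW63 and listed at 0 in the other 4 pigs. For S100A10 the Ensembl transcript held 8.13% over the 6 pigs, and 3 assembled transcripts the rest. An S100A11 transcript at 97233776–97238922 held 83.6% of the S100A11 sum over the pigs but 19.0% in LW88, where S100A11-201 held 81.0%. S100A4, S100A8 and S100A12 had 1 transcript each, and S100A9 had 1 with values above 0, so no such choice enters their levels.

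On chromosome 4, 15 S100 genes lay in a row in the order S100A1, S100A13, S100A14, S100A16, S100A2, S100A3, S100A4, S100A5, S100A6, S100A7, S100A8, S100A12, S100A9, S100A11 and S100A10. S100A8, S100A12 and S100A9 were next to each other, with 15.1 kb and 8.98 kb between them, and S100A11 began 994.2 kb beyond S100A9. Genes listed at or near 0 stood between expressed ones. S100A3, 1.37 kb from S100A4, was listed at 0 in all 6 pigs, as was S100A7, and S100A5, between S100A4 and S100A6, reached at most 0.0381 FPKM. The high values of LW119 ran along the row and were not limited to the myeloid genes, with S100A14 at 3.14 FPKM in LW119 against at most 0.147 FPKM, and S100A16 at 30.5 FPKM against 5.50 to 15.9 FPKM. S100A1 and S100A13, at the start of the row, were highest in LW63. The gene models of S100A1 and S100A13 overlap by 1.33 kb and those of S100A13 and S100A14 by 2.23 kb. Whether reads of the overlaps enter the values of both genes was not tested.

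**Figure D5:**
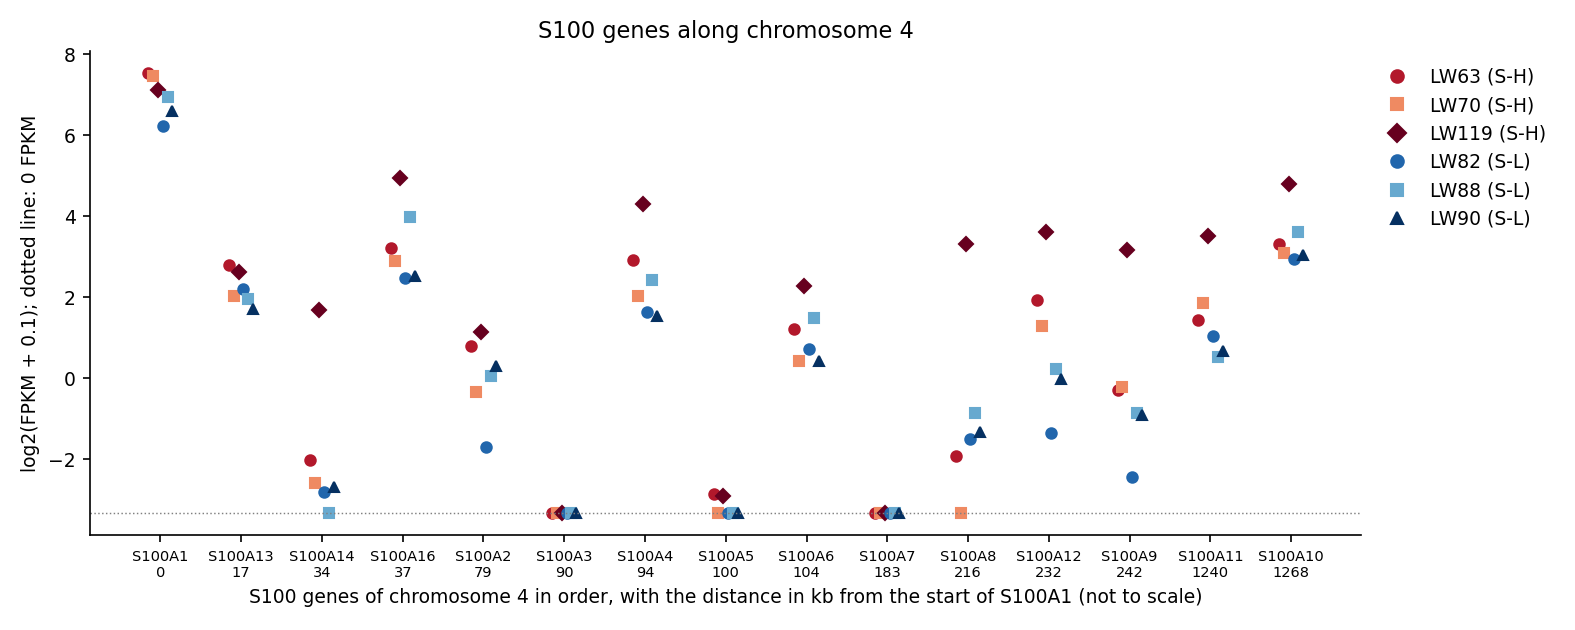
Level of the 15 S100 genes of chromosome 4 in each pig as log2(FPKM + 0.1), in chromosomal order with the distance in kb under each name. LW119 is the highest pig at each gene from S100A14 onwards except S100A3 and S100A7, which are listed at 0, and S100A5.

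Other S100 genes, receptors and partners were counted from the same fit. Of 10 other S100 genes 5 were tested and 0 passed in limma, with 0 at an unadjusted p below 0.05. Their median log2 fold change was 0.68, and S100A14 (1.96 ± 0.94, SE) and S100G (0.57 ± 0.35, SE), known as calbindin-D9k of the intestine, did not overlap between the groups, as for 13.1% of all tested genes. Without LW119 the log2 fold change was 0.63 for S100A14 and 0.50 for S100G. Of those 5, 4 were highest in LW119.

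Of the receptors and signalling genes that S100 proteins act through, all 13 were tested and 0 passed in limma, 0 had an unadjusted p below 0.05, and the median log2 fold change of 0.15 lay below the 0.21 of all tested genes. AGER, the receptor for advanced glycation end products, was at most 0.451 FPKM in any pig. TLR4 measured 1.94 FPKM in LW63, 1.99 FPKM in LW70 and 4.598 FPKM in LW119, against 1.43 FPKM in LW82, 2.88 FPKM in LW88 and 1.96 FPKM in LW90, so the groups overlapped. CD36, a fatty acid carrier that is also a receptor for S100A8 with S100A9, was the most abundant at 161.0 to 300.1 FPKM. ALCAM, an adhesion molecule, was the gene of this list whose groups did not overlap (0.54 ± 0.26, SE; adjusted p of 0.615 in limma). That was 1 of the 13, with S-H higher, against 13.1% of all tested genes.

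Of 29 binding partners 21 were tested and 0 passed in limma, with 2 higher and 1 lower at an unadjusted p below 0.05, where 7.08% and 1.08% of all tested genes lay. Among those not tested were MYH9 (a non-muscle myosin), RYR1 (the ryanodine receptor), PLN and TTN, which were not found under their symbols. Annexin A6 (ANXA6), bound by several S100 proteins, measured 74.4 FPKM in LW63, 82.4 FPKM in LW70 and 74.1 FPKM in LW119, against 47.3 FPKM in LW82, 51.6 FPKM in LW88 and 29.4 FPKM in LW90. The groups did not overlap, and LW119 did not stand apart, with a log2 fold change of 0.89 ± 0.27 (SE; adjusted p of 0.581 in limma). Annexin A2 (ANXA2) measured 158.5 FPKM in LW63, 95.8 FPKM in LW70 and 294.7 FPKM in LW119, against 51.5 FPKM in LW82, 103.9 FPKM in LW88 and 56.5 FPKM in LW90. LW70 lay below LW88, and its log2 fold change was 1.29 ± 0.42 (SE; adjusted p of 0.581 in limma), or 0.88 without LW119. MDM2, which binds p53 as several S100 proteins do, gave -1.19 ± 0.52 (SE; adjusted p of 0.608 in limma), with LW63 inside the S-L range, and -0.77 with an unadjusted p of 0.155 in limma without LW119, its lowest pig. PYGM, the muscle glycogen phosphorylase that S100A1 binds, gave -0.57 ± 0.28 (SE) with no overlap between the groups, and annexin A11 (ANXA11) gave 0.47 ± 0.25 (SE), also with no overlap. In all, the groups did not overlap for 2 of the 21 with S-H higher, against 13.1% of all tested genes. They did not overlap for 1 of the 21 with S-H lower, against 1.7% of all tested genes.

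Calcium-binding EF-hand genes outside the family gave a comparison for S100A1 in the muscle fibre. Of 10 such genes 9 were tested and 1 passed: PVALB (parvalbumin, the calcium buffer of fast fibres) fell by 2.92 on the log2 scale (SE 0.82; adjusted p of 0.548 in limma), where 0.188% of all tested genes passed as lower. It measured 6.93 FPKM in LW63, 0.268 FPKM in LW70 and 2.05 FPKM in LW119, against 15.8 FPKM in LW82, 12.9 FPKM in LW88 and 11.7 FPKM in LW90. Every S-H pig lay below every S-L pig, as for 1.7% of all tested genes and in the opposite order to S100A1. The groups did not overlap, with S-H higher, for 4 of the 9, against 13.1% of all tested genes, and none of the 4 passed. These were CAPNS1, the small calpain subunit (0.57 ± 0.24, SE), TNNC1, slow troponin C (0.51 ± 0.33, SE), CALM3, a calmodulin gene (0.46 ± 0.23, SE), and CAPN1, the large subunit of mu-calpain (0.41 ± 0.23, SE).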

How the data were processed

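RNA of LD muscle from 6 castrated male Laiwu pigs (3 S-H, 3 S-L) was sequenced by the authors, mapped with HISAT2 (version not given in the sources used here) to the Sus scrofa assembly and quantified per transcript with StringTie. The deposited table gives FPKM per transcript and pig. Tests on this file showed that 21104 transcripts without a symbol hold deposited TPM values instead. They were multiplied by 1 factor per pig (0.639 in LW119 to 0.847 in LW82), after which gene sums matched the gene table of the authors within 1% for 1994 of 1994 genes compared, against 1640 before. S100A9 and S100B are among the genes converted. With no read counts per gene in use, the reads and counting error behind an FPKM value are unknown.

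FPKM was summed over the transcripts of each Ensembl gene. Protein-coding genes were taken from the RefSeq annotation by symbol or by at least 50% reciprocal overlap (17088), and those with a mean of at least 0.1 FPKM (12743) were tested with limma 3.58.1 in R 4.3.3 on log2(FPKM + 0.1), with a variance trend and Benjamini-Hochberg adjustment over all of them. A fold change on this scale understates the change of low genes. The test was checked on simulated data. Correlations were tested by exact permutation with numpy 2.4.6 in Python 3.11.15, with ranks and adjusted p from scipy 1.17.1. The pigs are separate animals. No sequence of an S100 gene was at hand, and none is shown.

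The S100 genes and the gene and marker lists were chosen with earlier results of these data known. Genes named besides the S100 genes are, of each S100-related list, those that passed or did not overlap (at most 4 a list with the largest change), the nearest patterns, and markers at 0. Cell type marker lists are given by counts and sums. ANXA2, ANXA1, MDM2, AGER, TLR4, CD36, CHTOP, LTF, NCAM1, CAPN1 and ELANE were named for their role or after their values were seen. MYH9, RYR1, PLN and TTN were named as binding partners that were not found. The values of 1 marker gene are not reported here. Alternatives were the pseudocount, the minimum level, TPM, size factors, quantile normalization, the variance model, the gene set, single transcripts, each pig left out and, chosen after seeing the data, the values as deposited.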

Additional observations from a re-analysis of the deposited data

How the results depend on the processing

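Over 18 alternatives the log2 fold change kept its direction for S100A1 (0.56 to 1.93), S100A4 (0.61 to 1.74), S100A9 (1.14 to 2.87), S100A10 (0.01 to 0.86), S100A11 (0.91 to 2.23), S100A12 (1.79 to 3.15) and S100B (0.26 to 1.23). S100A8 turned to -0.38 with a pseudocount of 0.01, and ran from -1.40 (without LW119) to 1.93 with each pig left out. S100A6 turned to -0.50 when the transcript with the highest mean stood for the gene, and ran from -0.051 (without LW119) to 0.87 (without LW70) with each pig left out. The count of S100 genes other than S100A12 that passed, 1, became 0 with a pseudocount of 1, no minimum mean, median-ratio size factors, quantile normalization, no variance trend, all genes with a symbol, or the transcript with the highest mean, and ran from 0 to 2 with each pig left out. Of the receptor, partner and other S100 genes, 0 passed, against 1 with TPM and 0 to 2 with each pig left out. All genes passing numbered 173 (149 higher, 24 lower), 77 with a pseudocount of 1, and 86 (without LW90) to 261 (without LW82) with each pig left out. Median-ratio size factors gave 84 higher and 55 lower, and quantile normalization 69 higher and 62 lower. The correlation of S100A10 with ANXA2 was 0.816 with size factors (exact permutation p = 0.05). The cause of these changes was not tested, beyond the fewer pigs of each left-out fit. No paired analysis was possible because the pigs are different animals and the labels give no number shared between S-H and S-L. With 3 pigs a group and no read counts, differences at low FPKM such as that of S100A8 without LW119 are least secure.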
